A study of Mus musculus with 12 samples.

Results

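The cytosolic ribosome is built from ribosomal RNA and a fixed set of ribosomal proteins, and the mRNAs of these proteins were followed in colonic myofibroblasts with and without TNFR1. Members were taken by symbol, as genes named Rpl or Rps with a number and an optional letter, or Rplp with its number, which gave 80 of 24411 gene symbols in the expression table, 49 of the large (60S) and 31 of the small (40S) subunit. Of these, 77 had enough counts to test, 46 large and 31 small subunit genes. RNA was sequenced from primary colonic myofibroblasts, contractile cells of the gut wall that were isolated from the distal colon (C57BL/6 mice, 16 weeks of age). The knockout group held 6 libraries from TNFR1-/- cells and the control group 6 libraries from heterozygous TNFR1+/- cells, so that the controls carried 1 disrupted copy and no wild-type group was analysed here. All cells were untreated, at passage 6 to 8, and were recovered after 5 days in Matrigel, a basement membrane gel. The labels do not name the knockout allele, and they do not say whether the libraries of a group came from separate mice or cultures, so p-values measure only the spread between these libraries, which may be technical.

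Ribosomal proteins of the large subunit line the peptidyl transferase surroundings, the exit tunnel and the stalk that recruits translation GTPases, whereas those of the small subunit hold the mRNA channel and the decoding site. Their mRNAs belong to the most abundant of a growing cell and mostly begin with a run of pyrimidines, the 5′ terminal oligopyrimidine (TOP) motif, through which mTOR signalling and LARP1 control their translation together. Several of the proteins also act outside the ribosome, such as Rpl5 and Rpl11, which with 5S rRNA bind MDM2 when ribosome assembly is disturbed.

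The transcription start region was searched for such a run. Windows of 30 bases, from 10 bases before to 20 bases from each RefSeq start (mouse build GRCm38.p6), are printed for some of the genes named below. Capitals mark the pyrimidine run, defined as a C within 5 bases of the start that opens an unbroken stretch of at least 5 C or T on the strand of the gene. The first 5 windows belong to genes that were lower in the knockout group, the last 3 to genes whose level differed least or in the other direction. They are not a balanced choice, since lower genes without a run, such as Rplp0, Rpl41 and Rps28, are not printed. Of the tested members, 14 of 28 with the run and 11 of 28 without it were lower.
Rpl12 (chr2:32961702-32961731, plus strand): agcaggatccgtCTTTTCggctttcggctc
Rpl28 (chr7:4792955-4792984, plus strand): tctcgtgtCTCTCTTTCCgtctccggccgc
Rplp2 (chr7:141447641-141447670, plus strand): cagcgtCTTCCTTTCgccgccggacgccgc
Rps18 (chr17:33955646-33955675, minus strand): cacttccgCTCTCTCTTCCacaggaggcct
Rps6 (chr4:86857348-86857377, minus strand): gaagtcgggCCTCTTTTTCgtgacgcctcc
Rps27l (chr9:66946076-66946105, plus strand): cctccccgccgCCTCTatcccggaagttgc
Rpl11 (chr4:136053374-136053403, minus strand): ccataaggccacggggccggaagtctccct
Rpl24 (chr16:55966265-55966294, plus strand): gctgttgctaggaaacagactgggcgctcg
The run was present in Rpl12, Rpl28, Rplp2, Rps18, Rps6 and Rps27l, and no run by this definition was found near the start of Rpl11 and Rpl24. RefSeq entries were found for 59 of the 80 members, and 30 of their 71 start sites (42.3%) held such a run, against 6027 of 32851 start sites of all genes (18.3%). Large subunit genes had it at 40.9% of their starts and small subunit genes at 44.4%. Because RefSeq starts can lie some bases from the start used in these cells, a match describes the annotated letters only.

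The libraries did not fall into 2 even groups. By their profiles they formed 4 sets, with rank correlations across genes of 0.989 to 0.998 inside the 3 sets that hold several libraries. Coefficients were 0.927 to 0.955 across sets of 1 genotype and 0.884 to 0.976 between genotypes, so that some libraries of unlike genotype were closer than any from unlike sets of 1 genotype. Across the 77 tested members alone they were 0.968 to 0.976 and 0.933 to 0.962, and no libraries of unlike genotype were closer. Knockout libraries 1 to 4 formed the first set and libraries 5 and 6 the second, controls 1 to 5 formed the third, and control 6 stood alone. Total counts were 6543013 to 9937008 in the knockout and 11890729 to 16458689 in the control libraries. Tnfrsf1a, which encodes TNFR1, was lower in the knockout libraries (40.6 to 46 counts per 1000000 counts of the library, CPM) than in the controls (54.8 to 81.2), with a fitted log2 difference of -0.76 (SE 0.10, edgeR adjusted p = 9.24e-05). Control 6 had the lowest control value of Tnfrsf1a, above every knockout library and below the other controls, and whether its label is right was not tested. The ribosomal RNA precursor Rn45s took 1.63% to 2.1% of counts in knockout 1 to 4, 7.01% and 8.25% in knockout 5 and 6, 0.871% to 1.19% in control 1 to 5 and 0.351% in control 6. A scaling that left out Rn45s and the ribosomal protein genes is given in the last section. Any other part of Rn45s in the differences below was not tested. Of the cell type markers, those of myofibroblasts summed to 13478 to 34140 CPM in knockout and 24744 to 35436 in control libraries, with 4 of 9 genes higher and 1 lower. Beside this and the marker counts that follow, 21.4% of all genes tested were higher and 21.6% lower. The 6 macrophage and leukocyte markers summed to 34.0 to 47.2 against 67.7 to 117 CPM, 4 of them lower in the knockout group. Epithelial markers summed to 4.91 to 9.85 against 1.02 to 8.83 CPM, with 1 of 6 genes tested and Epcam, Cdh1 and Vil1 at no more than 1 count in any library. Endothelial markers (1 of 2 tested genes lower) and markers of enteric glia and neurons (1 of 3 higher, 1 lower) stayed at or below 34.1 CPM in sum, and the part of these other cell types was not tested.

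Ribosomal protein mRNA made up a smaller part of the knockout libraries than of 5 of the 6 controls. The 80 genes together took 3.62%, 3.60%, 4.62%, 3.59%, 5.07% and 5.03% of all counts in knockout 1 to 6. In control 1 to 6 they took 6.74%, 7.0%, 6.66%, 6.73%, 7.16% and 3.20%. Control 6 thus had the lowest share of all 12 libraries, below every knockout library, while control 1 to 5 lay above every one of them. The group means were 4.25% ± 0.73 (SD, n = 6) for knockout and 6.25% ± 1.51 (SD, n = 6) for control, and the groups overlapped through control 6. In such bulk libraries, fewer cells with high ribosomal protein expression and less of these mRNAs per cell cannot be told apart.

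Both subunits were lowest in control 6 and highest in control 1 to 5. Large subunit genes summed to 26586 ± 3823 CPM in knockout and 37527 ± 8224 CPM in control libraries (SD, n = 6 each), and small subunit genes to 16650 ± 2397 and 23342 ± 5351 CPM. The ratio of large to small subunit counts was 1.597, 1.604, 1.57, 1.594, 1.595 and 1.62 in knockout 1 to 6 and 1.595, 1.61, 1.602, 1.603, 1.598 and 1.67 in control 1 to 6. It therefore stayed within a narrow band in 11 libraries and was highest in control 6, the library with the least ribosomal protein mRNA. The group means of the ratio, 1.597 ± 0.0162 and 1.613 ± 0.0284, differed by less than the spread between control libraries.

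**Figure D1:**
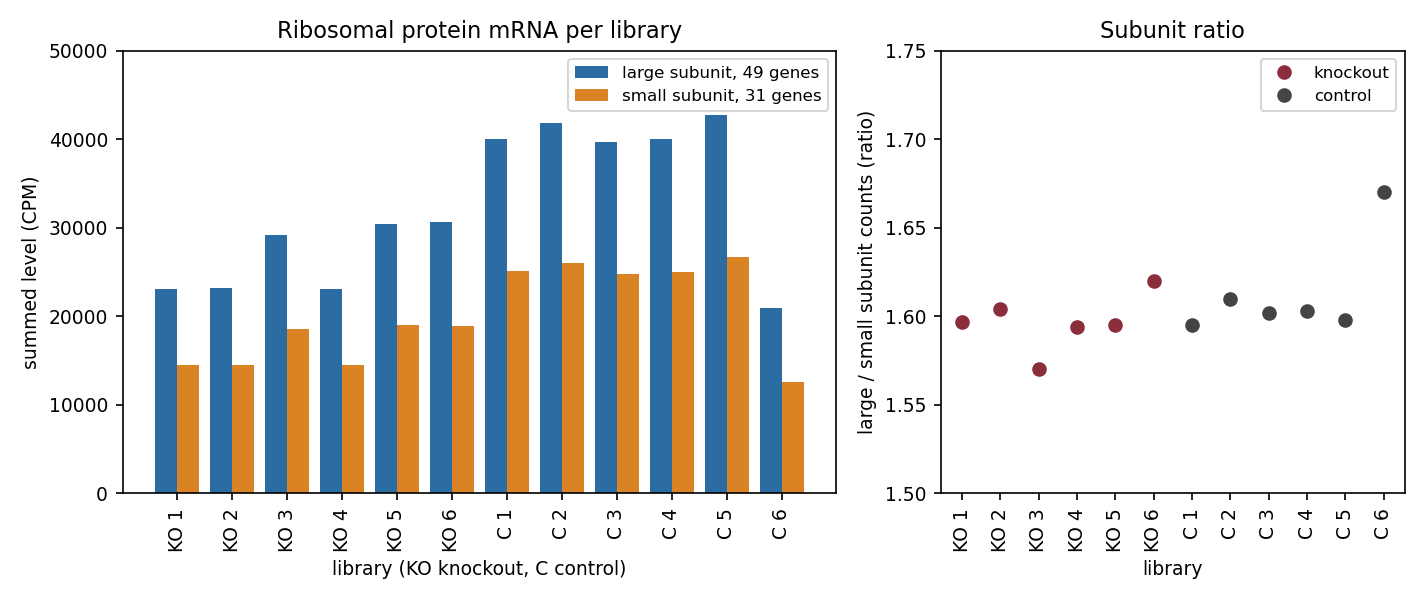
Summed level of the 49 large and 31 small subunit genes in each library (left, CPM) and the ratio of large to small subunit counts (right, axis from 1.5). Control 1 to 5 stand above all knockout libraries for both subunits, control 6 is lowest at 20916 and 12522 CPM, and its ratio of 1.67 is the highest.

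The comparison of knockout with control asks how the absence of TNFR1 goes with transcript levels in this mesenchyme. In the edgeR quasi-likelihood test, 41 of the 77 tested members (53.2%) were lower in the knockout group at an adjusted p under 0.05, beside 21.6% of all genes tested. No member was higher, beside 21.4% of all genes, and 1 was higher at an unadjusted p under 0.05. DESeq2 and limma-voom also called none higher. Lower calls were made for 24 of 46 large and 17 of 31 small subunit genes.

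Most members differed in the same direction, with sizes spread over a modest range. The fitted log2 difference was below 0 for 75 of 77 members, beside 48.7% of all genes. Its median was -0.49 over all members, -0.45 for the large and -0.50 for the small subunit, beside 0.02 for all genes tested. The range ran from -0.86 for Rpl12 to 0.32 for Rps27l. No member had all 6 knockout libraries on one side of all 6 controls, although 12.5% of all genes had all knockouts below and 10.6% had them above. The 6 knockout libraries were all below control 1 to 5 for 68 of 77 members (21.4% of all genes), and control 6 was below all knockout libraries for 60 of 77 (25.7% of all genes).

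The count of lower members rested on how control 6 and the library sets were treated. Without control 6, 73 of 77 members were lower (43 large, 30 small), beside 24.5% of all genes, with a median log2 difference of -0.61. Summed to the 4 sets of similar libraries, which leaves 2 values per genotype, edgeR called 0 members and 0 genes of all tested, and the median over members was -0.15.

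**Figure D2:**
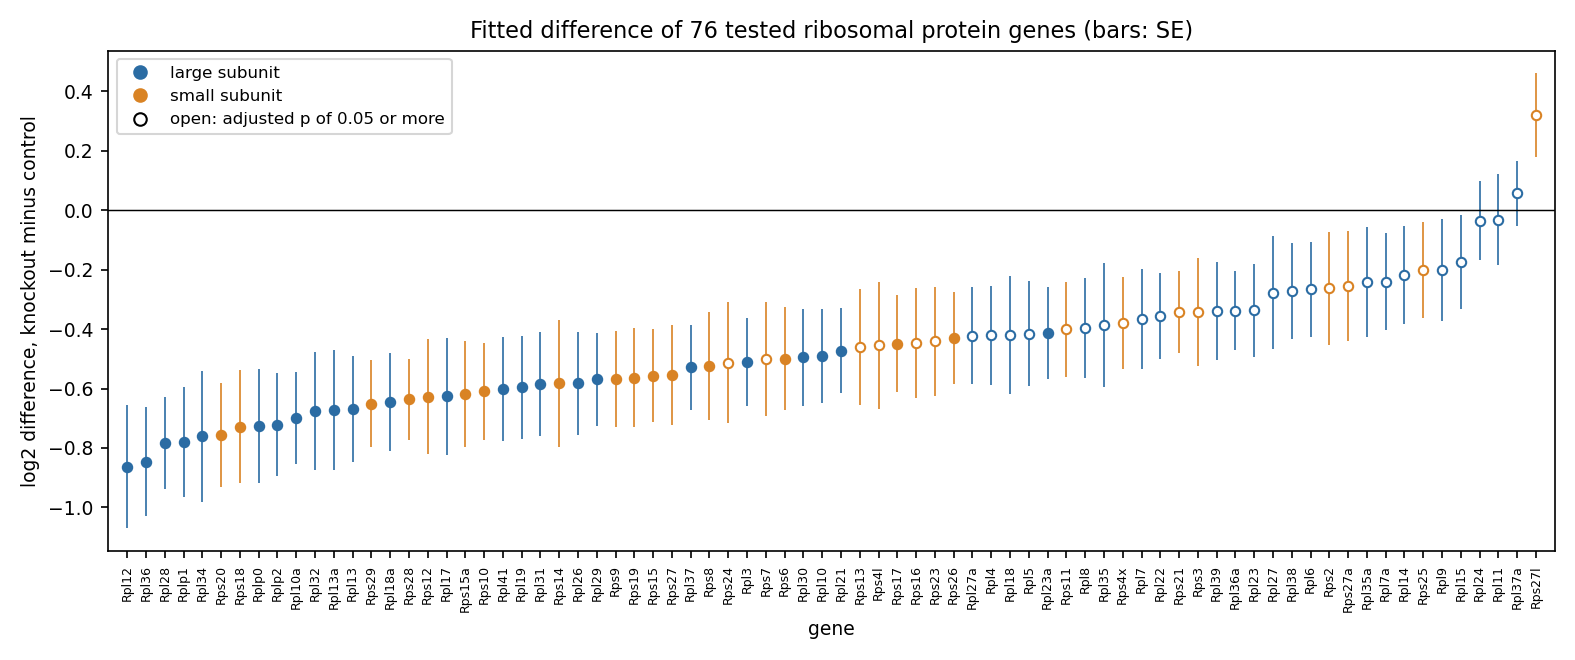
Fitted log2 difference between knockout and control for 76 of the 77 tested members, ordered by size, with bars of 1 SE and open symbols where the adjusted p was 0.05 or more. Large and small subunit genes are mixed along the order, 74 points lie below 0, and Rps27l at 0.32 stands at the upper end.

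Proteins of the P stalk, the flexible arm of the 60S subunit that binds elongation factors, showed some of the widest differences. All 4 listed genes were lower in the knockout group, beside 41 of 77 members and 21.6% of all genes, with a median log2 difference of -0.75. Rpl12, which forms the base of the stalk, measured 530.3, 538, 658, 548, 736 and 736 CPM in the knockout libraries (1 to 6) and 1239, 1295, 1244, 1233, 1292 and 511 CPM in the controls (1 to 6). Knockout 1, 2 and 4 were thus the lowest of their group, and the groups overlapped only because control 6 lay below all of them. The fitted difference of Rpl12 was -0.86 (SE 0.21, edgeR adjusted p = 0.00501), a 1.82-fold lower level, and -1.01 without control 6.

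Rplp1 and Rplp2 are the acidic stalk proteins that contact the GTPases, and Rplp0 anchors them to the ribosome. Rplp1 measured 863, 885, 1159.7, 889, 1198 and 1235 CPM in the knockout libraries and 1883, 2011, 1874, 1895, 2076 and 952 CPM in the controls. Control 6 fell among the knockout values, and the other controls were all higher. The fitted difference of Rplp1 was -0.78 (SE 0.19, adjusted p = 0.00497). Rplp0 had 1249 to 1897 CPM in knockout libraries, 2680.3 to 2847 CPM in control 1 to 5 and 1366 CPM in control 6, a difference of -0.73 (SE 0.19, adjusted p = 0.00907). For Rplp2 the ranges were 357 to 522, 755 to 840.5 and 425 CPM, with a difference of -0.72 (SE 0.17, adjusted p = 0.00529).

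Other members with wide differences came from both subunits. Rpl28, a eukaryote-specific protein of the 60S surface, measured 435, 438, 535, 434, 521 and 531 CPM in the knockout libraries (1 to 6) and 869.5, 929.6, 888, 882, 932 and 481 CPM in the controls. Control 1 to 5 were well above every knockout library, and control 6 lay inside the knockout range. Its difference of -0.78 (SE 0.15) had the smallest adjusted p among members, 0.00149. Rpl36, a further protein of the large subunit, ran from 178 to 260.4 CPM in knockout libraries against 407 to 473 CPM in control 1 to 5 and 216 CPM in control 6 (log2 difference -0.85, SE 0.18, adjusted p = 0.00279). Rps20, of the head of the small subunit, had 500.0 to 706 CPM against 997 to 1112 CPM and 498 CPM in control 6 (log2 difference -0.76, SE 0.18, adjusted p = 0.00415). Rpl34, with 210.4 to 388, 486 to 576 and 231 CPM, differed by -0.76 (SE 0.22, adjusted p = 0.0144).

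The proteins that travel with 5S rRNA were not called. Rpl5 measured 849, 849, 1013, 824, 1052 and 988 CPM in the knockout libraries and 1339, 1369, 1327, 1355, 1412 and 634 CPM in the controls. All knockouts lay below control 1 to 5 and above control 6, and the difference of -0.42 (SE 0.18) had an adjusted p of 0.0732, or -0.55 with an adjusted p of 0.000179 without control 6. Rpl11 measured 423, 423, 552, 435, 602 and 595 CPM against 544, 571, 538, 539.9, 577 and 330.4 CPM. Here knockout 5 and 6 exceeded every control, unlike knockout 1, 2 and 4, and the difference was -0.03 (SE 0.15, adjusted p = 0.881). Rpl11 and Rpl5 thus had unlike values although their proteins act in 1 complex; the difference between them was not tested.

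Genes of the polypeptide exit tunnel and exit site, where the nascent chain leaves the ribosome, were lower in 5 of 8 cases (62.5%). This share was near the 53.2% of all members, beside 21.6% of all genes, and the median was -0.50. Without control 6 all 8 were lower, beside 73 of 77 members and 24.5% of all genes. Rpl17 (-0.63, SE 0.20) and Rpl19 (-0.60, SE 0.17) were among those called, at adjusted p of 0.0206 and 0.0141. Rpl39, a very small protein of the tunnel wall, had 285 to 395 CPM in knockout libraries, 413 to 468 CPM in control 1 to 5 and 220.3 CPM in control 6. Its difference of -0.34 (SE 0.16, adjusted p = 0.111) did not pass the test with all libraries.

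Small subunit genes of the mRNA channel and decoding site gave the same count, 5 of 8 lower with a median of -0.50. This was again near the share of all members, beside 21.6% of all genes. Without control 6 the count was 8 of 8, beside 73 of 77 members and 24.5% of all genes. Rps28, near the mRNA exit, was lower at -0.64 (SE 0.14, adjusted p = 0.00263), and Rps2, at the mRNA entry, was nearest to 0 at -0.26 (SE 0.19, adjusted p = 0.282). Of the 3 beak genes, Rps10 and Rps12 were lower at -0.61 and -0.63, and Rps27a, which is made as a fusion with ubiquitin, was not called at -0.25 (adjusted p = 0.282).

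Rps6, the small subunit protein phosphorylated by S6 kinase downstream of mTOR, measured 738, 738, 883, 722, 956 and 945 CPM in knockout 1 to 6. In control 1 to 6 it measured 1271, 1307, 1256, 1246, 1332 and 629.7 CPM. As for the summed genes, control 6 was lowest and control 1 to 5 were highest. The difference of -0.50 (SE 0.17) passed at an adjusted p of 0.0332, a call that was lost on leaving out any 1 of knockout 1, 2 and 4 or of control 1 to 5 (adjusted p of 0.0636 to 0.0703) and was stronger without control 6 (-0.62, adjusted p = 0.000175). Rps18, of the head of the small subunit, gave -0.73 (SE 0.19, adjusted p = 0.00835).

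**Figure D3:**
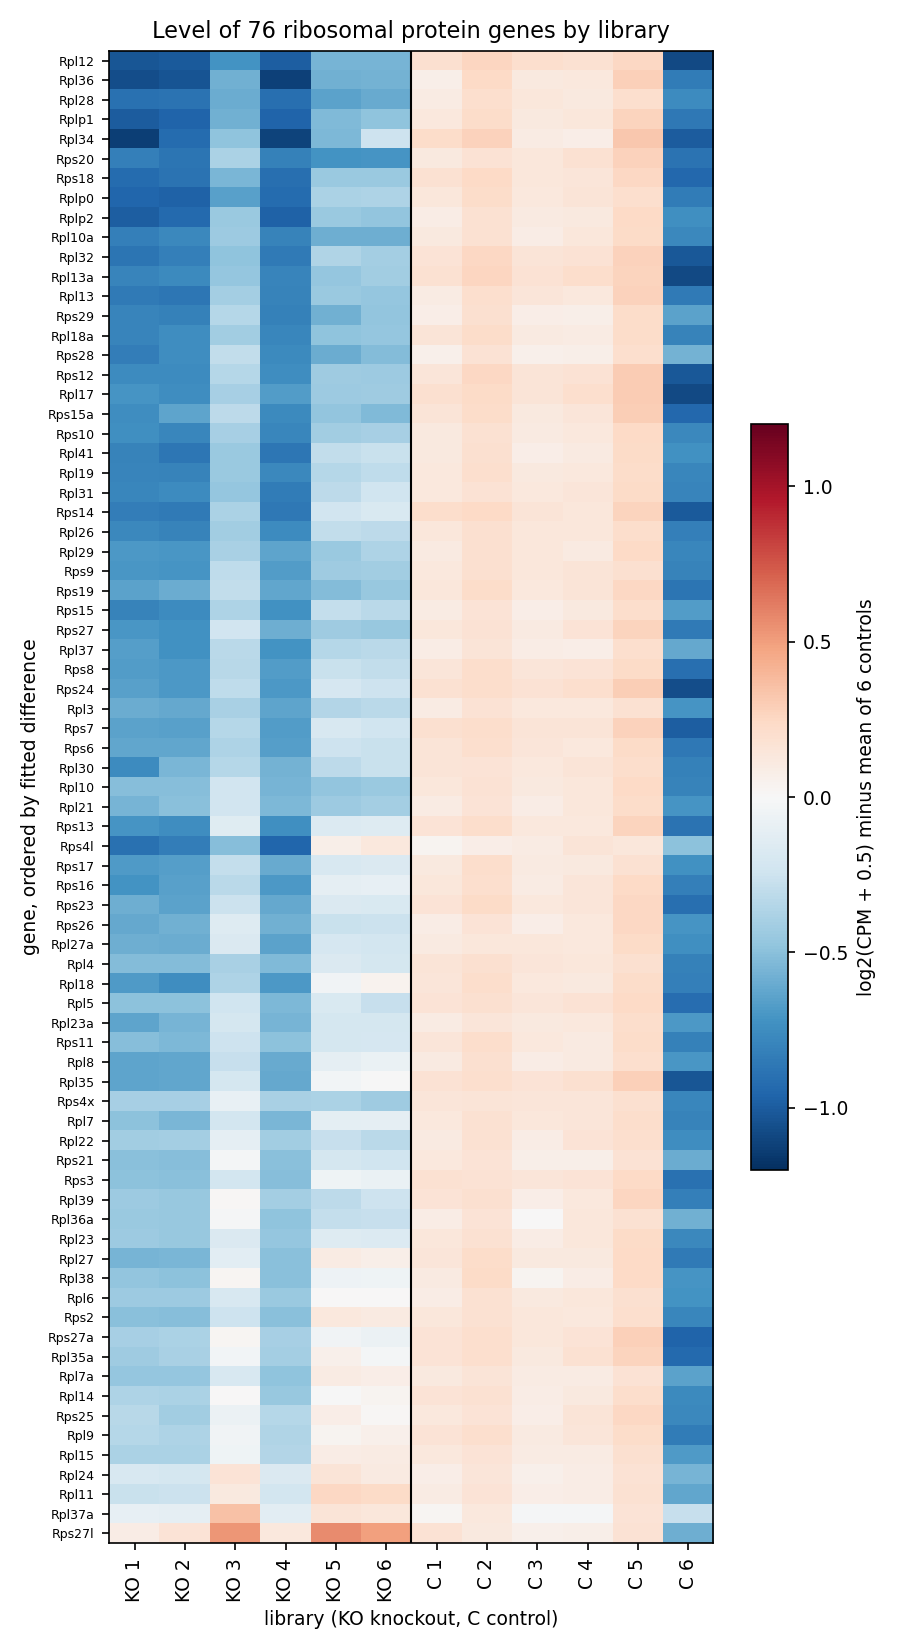
Level of 76 of the 77 tested members in each library, as log2(CPM + 0.5) minus the mean of the 6 controls, with genes ordered by fitted difference and a line between knockout and control. The control 6 column is low for nearly all genes, and knockout 3, 5 and 6 are less low than knockout 1, 2 and 4. The last 4 genes from Rpl24 to Rps27l are near or above 0 in knockout 5 and 6. So are other genes, such as Rpl15, Rpl7a and Rps2.

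Levels per coding length spread the tested members over a wide range. Among the 76 tested members with a known coding length, the mean level per kilobase of coding sequence over all 12 libraries was highest for Rpl41 (9081 CPM), Rplp1 (4123 CPM) and Rpl39 (2352 CPM) and lowest for Rps27l (558.8 CPM), Rpl22 (733.8 CPM) and Rpl36a (764 CPM). The order depends on the divisor. Per kilobase of whole transcript Rpl39 had 587.9 CPM, below the 594.5 CPM of Rpl22. Rpl41, whose product is one of the shortest proteins known, has so short a coding sequence that untranslated regions weigh heavily in its value. It was lower in the knockout group, at 439 to 665 CPM against 845 to 942 CPM in control 1 to 5 and 483 CPM in control 6 (log2 difference -0.60, SE 0.17, adjusted p = 0.0147). Rpl22 (-0.36, adjusted p = 0.0633) and Rpl36a (-0.34, adjusted p = 0.0543) did not pass with all libraries but did without control 6, at adjusted p of 0.000192 and 0.0018.

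Coding length itself went with little of the difference. Median log2 differences were -0.53, -0.49 and -0.42 in 3 groups of short, middle and long coding sequence (75 to 396, 399 to 552 and 564 to 1257 nucleotides), with 15 of 25, 15 of 26 and 11 of 25 genes lower. Across genes, which share the libraries and are not independent, Spearman's rho of the difference was 0.09 with coding length and -0.21 with mean CPM. The annotated pyrimidine run separated the members as little. Median differences were -0.47 in the 28 tested members with the run (14 lower) and -0.43 in the 28 without it (11 lower).

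The members with a fitted difference above 0 were Rpl37a (0.06, SE 0.11, adjusted p = 0.704) and Rps27l, 1 of the 2 tested paralogs whose symbols end in the letter l. Rps27l, a close copy of Rps27 known as a target of p53, measured 131, 138, 178, 135, 183 and 173 CPM in the knockout libraries (1 to 6) and 139, 134, 128, 129, 139 and 81.8 CPM in control 1 to 6. Knockout 3, 5 and 6 exceeded all controls, the other knockouts lay among control 1 to 5, and control 6 was lowest. The difference of 0.32 (SE 0.14) did not pass, with an adjusted p of 0.0818, nor did that of 0.22 without control 6 (adjusted p = 0.0872). Rps27 itself was lower at -0.56 (SE 0.17, adjusted p = 0.0181).

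The ratio of Rps27l to Rps27 counts was 0.478, 0.512, 0.469, 0.455, 0.551 and 0.534 in knockout 1 to 6. In control 1 to 6 it was 0.283, 0.267, 0.267, 0.259, 0.259 and 0.332. These values did not overlap, with control 6 included. Rps4l, the copy of the X-linked Rps4x, was at 9.04 to 12.5 CPM in the first 4 knockout libraries and at 18.9 and 19.6 CPM in the last 2, beside 18.3 to 20.0 CPM in control 1 to 5 and 12.6 CPM in control 6. Its level separated the knockout sets more than the genotypes, and the difference of -0.45 (SE 0.21, adjusted p = 0.103) was not called, though it was without knockout 5 and 6 (-0.84, adjusted p = 0.000835). Rpl10l, a testis paralog, had 0 counts in all libraries, Rpl3l, known from striated muscle, at most 1, and Rpl39l at most 9.

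Because nearly all members were lower together, each was also set against their total, by an edgeR fit on all genes with the summed member counts as library size. On this scale 4 members were higher in the knockout group (32.8% of all genes) and 2 were lower (5.04% of all genes). The member total itself was lower on average in knockout libraries (43237 against 60868 CPM), so genes outside it shift upward on this scale. The shares of all genes on this scale are thus partly set by the scaling and are no yardstick for the members. The adjusted p-values were taken over these same shifted genes. Rps27l rose from 20.9 ± 1.84 counts per 10000 ribosomal protein counts in controls to 36.1 ± 1.02 in knockouts (SD, n = 6 each), a log2 difference of 0.79 (SE 0.12, adjusted p = 0.000803). Its knockout values of 35.0 to 37.3 lay wholly above the control values of 19.8 to 24.5.

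Rpl37a, Rpl11 and Rpl24, all of the large subunit, were the other 3 that rose in share. Scaled to whole libraries, their fitted differences were near 0 at 0.06, -0.03 and -0.04, and none was called. Rpl11 took 116 ± 3.81 of 10000 counts in knockout and 86.0 ± 6.29 in control libraries (log2 difference 0.44, SE 0.12, adjusted p = 0.0134), and Rpl24, which reaches from the 60S towards the 40S subunit, 104 ± 2.98 and 76.7 ± 7.45 (0.44, SE 0.12, adjusted p = 0.0155). For Rpl37a the shares were 77.5 ± 5.43 and 54.9 ± 11.7 (0.50, SE 0.15, adjusted p = 0.023), and its groups overlapped, since control 6 with 78.7 lay among the knockouts. The 2 members whose share fell were Rpl12, at 144 ± 4.38 against 184 ± 15.4 (-0.35, SE 0.12, adjusted p = 0.0361), and Rpl36, at 51.0 ± 2.61 against 65.4 ± 1.97 (-0.36, SE 0.12, adjusted p = 0.0291).

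More members had shares without overlap than were called. In 17 members all 6 knockout shares were above all 6 control shares (6.05% of all genes), and in 15 all were below (4.58% of all genes). The 15 included Rplp0, Rplp1, Rplp2 and Rpl12 of the stalk, and the 17 included Rpl11, Rpl24, Rps27a and Rps27l. Without control 6 the calls were 18 higher (66.8% of all genes) and 14 lower (6.09% of all genes), and summed to the 4 sets they were 0 and 0.

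**Figure D4:**
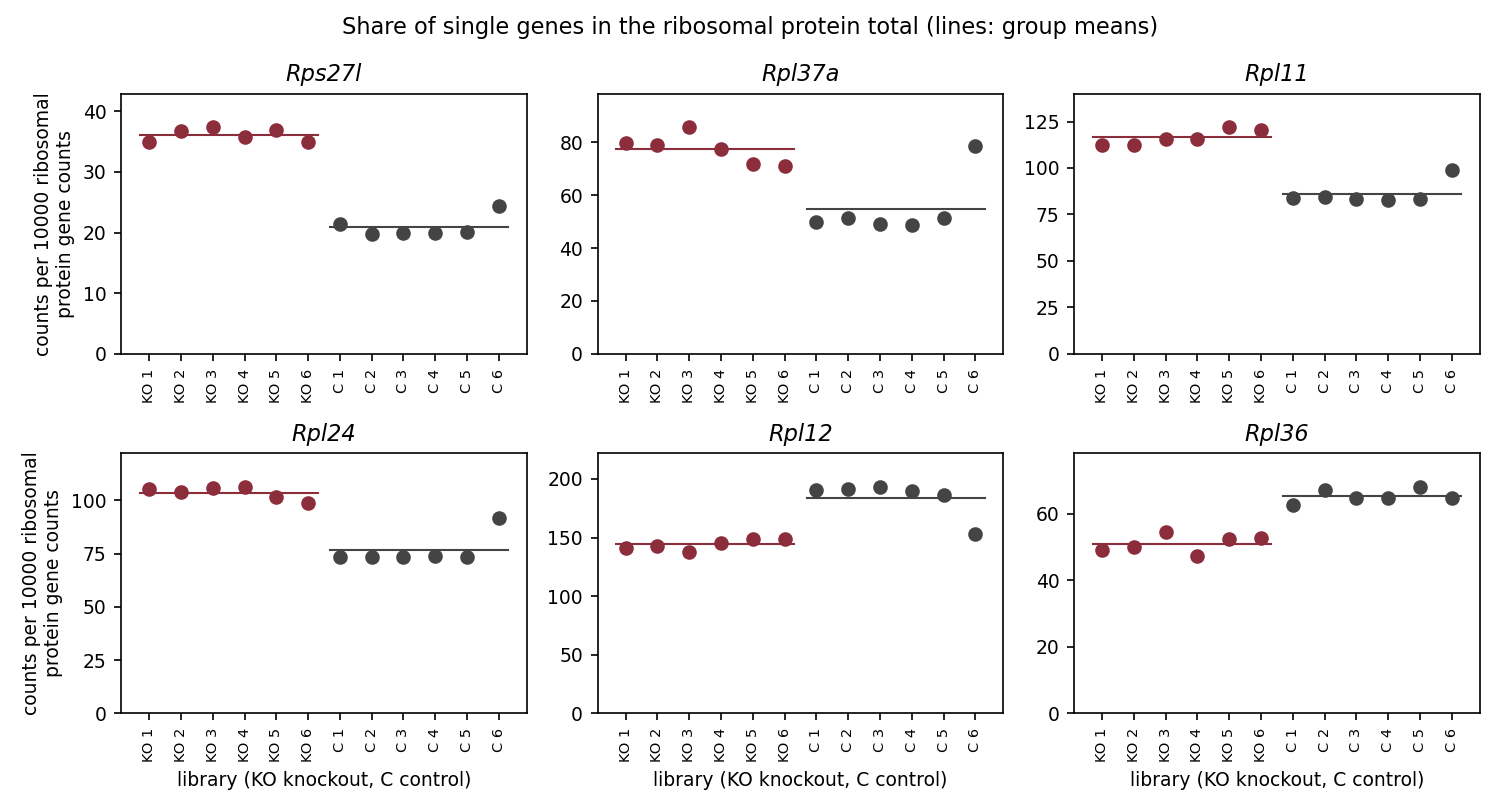
Counts per 10000 ribosomal protein counts in each library for the 6 members called on this scale, with lines at the group means. Rps27l, Rpl11 and Rpl24 have knockout values above all controls, Rpl12 and Rpl36 below all controls, and in Rpl37a control 6 (78.7) lies among the knockouts.

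The 4 sets of libraries were also compared pair by pair. Knockout 1 to 4 were lower than control 1 to 5 in 76 of 77 members (51.1% of all genes), with a median log2 difference of -0.74, and knockout 5 and 6 in 73 of 77 (50.8% of all genes), with a median of -0.43. Against control 6 the direction turned. Knockout 1 to 4 were higher than control 6 in 66 members (50.6% of all genes; median 0.25), and knockout 5 and 6 in all 77 (49.7% of all genes, with 50.3% below; median 0.55).

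Within a genotype, control 6 was lower than control 1 to 5 in all 77 members (51% of all genes), with a median of -0.96 that exceeded the median of either knockout set against those controls. Medians for the large and small subunit were -0.95 and -1.02. Knockout 5 and 6 were higher than knockout 1 to 4 in 76 members (48.9% of all genes; median 0.32), the exception being Rps4x. Even within the set of knockout 1 to 4, knockout 3 was higher than the other 3 in 77 of 77 members (51% of all genes), with a median of 0.36 and a range of 0.14 to 0.59. Knockout 3 also had the fewest counts of any library, 6543013, and the part of depth in this was not tested. These set contrasts carry no test.

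**Figure D5:**
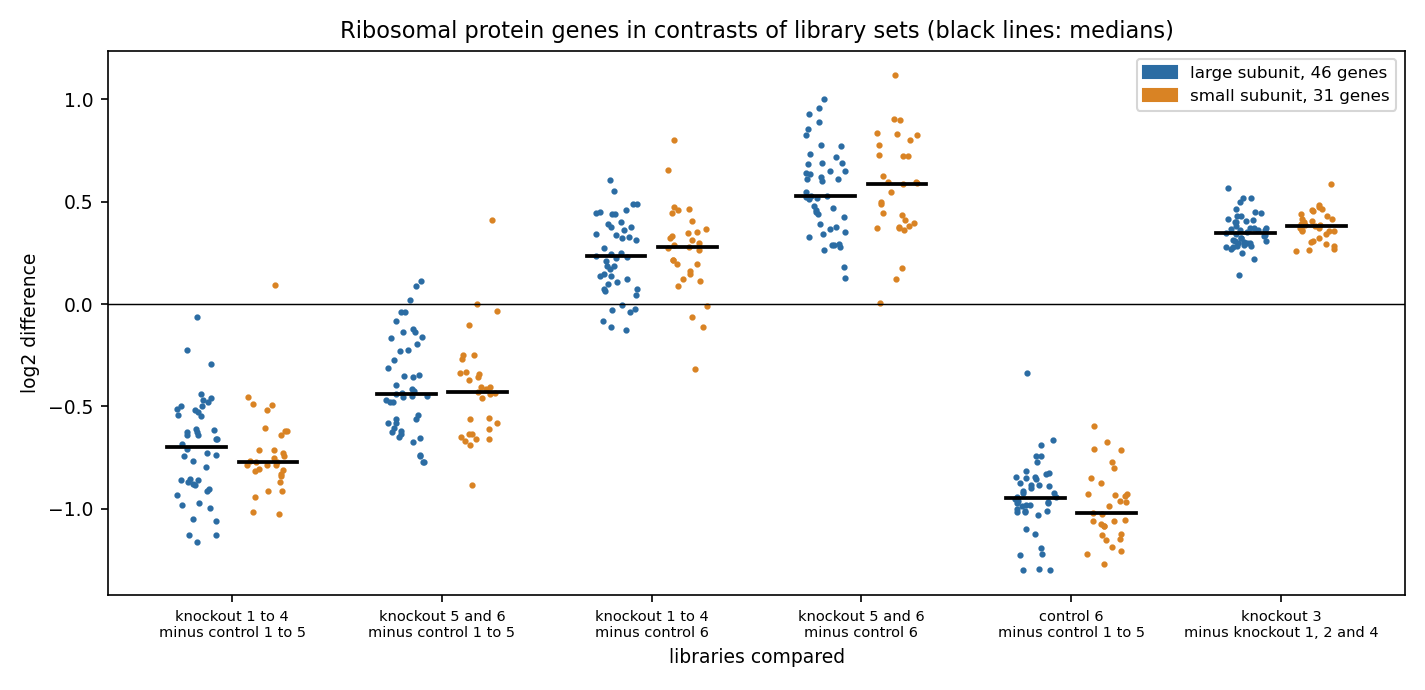
Log2 difference of each tested member (46 large, 31 small subunit) in 6 contrasts of library sets, with black lines at the medians and no test. Against control 1 to 5, 76 members lie below 0 for knockout 1 to 4, 73 for knockout 5 and 6 and 77 for control 6, and members lie mostly above 0 when the knockout sets are set against control 6.

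Ribosomal proteins whose symbols fall outside the rule were lower in 3 of 7 tested cases (21.6% of all genes) and higher in none (21.4%), with a median of -0.32. Rpsa, a small subunit protein also known as a laminin receptor, had 1371 ± 214 CPM in knockout and 2187 ± 557 CPM in control libraries (log2 difference -0.67, SE 0.20, adjusted p = 0.0153). Fau, which encodes a small subunit protein fused to a ubiquitin-like part, differed by -0.59 (SE 0.17, adjusted p = 0.0127). Control 6 had 1059 CPM of Rpsa, below all knockout libraries (1167 to 1608 CPM). Its 247 CPM of Fau lay inside the knockout range of 226 to 333 CPM.

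Other genes known for TOP mRNAs moved in both directions, 9 of 23 lower (39.1%, beside 21.6% of all genes) and 3 higher (beside 21.4%), with a median of -0.18. Eef2, the translocation factor, fell from 5094 ± 749 to 2801.5 ± 269 CPM (log2 difference -0.86, SE 0.14, adjusted p = 0.000416), and Eef1a1, which delivers aminoacyl-tRNA, differed by -0.61 (SE 0.16, adjusted p = 0.00939). Control 6 had 3577 CPM of Eef2, above the knockout range of 2438 to 3028 CPM. Its 6757 CPM of Eef1a1 lay inside the knockout range of 6286 to 7859 CPM. Eif4a2, an RNA helicase of translation initiation, was higher at 341 ± 19.2 against 192 ± 26.3 CPM (0.83, SE 0.10, adjusted p = 4.68e-05), and so was the histone chaperone Nap1l1 (0.58, SE 0.09, adjusted p = 0.000385).

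Among 19 genes of mTOR signalling and TOP translation, 4 were higher and 5 lower (26.3%), with a median of -0.05, shares near the 21.4% and 21.6% of all genes. Rheb, the GTPase that activates mTOR, was higher (0.46, SE 0.09, adjusted p = 0.00121), and Eif4ebp1, a translation repressor that mTOR inactivates, was lower (-0.86, SE 0.16, adjusted p = 0.00122). Deptor, an mTOR inhibitor, had the largest difference of the list at 1.34 (SE 0.37, adjusted p = 0.0117), with 5.07 to 14.1 CPM in knockout libraries, 1.96 to 3.08 CPM in control 1 to 5 and 8.77 CPM in control 6. Control 6 had 112.7 CPM of Eif4ebp1, inside the knockout range of 105.8 to 142, beside 219.8 to 246 CPM in control 1 to 5. Larp1, the repressor that binds the TOP motif, gave 317 ± 69.0 and 265 ± 5.64 CPM (0.26, adjusted p = 0.117).

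Factors that chaperone or export ribosomal proteins and subunits were higher in 7 and lower in 1 of 18 tested genes (21.4% and 21.6% of all genes), with a median of 0.26. Without knockout 5 and 6 the counts were 6 higher and 6 lower, beside 24.5% and 27.5% of all genes. Nmd3, an export adaptor of the 60S subunit, was at 53.6 to 61.2 CPM in the first 4 knockout libraries, at 133.5 and 124 CPM in the last 2 and at 33.6 to 49.3 CPM in controls, so the last 2 knockouts stood well above the rest. Ipo7, an importin that carries ribosomal proteins into the nucleus, was higher (0.61, SE 0.13, adjusted p = 0.00264), and Aamp was lower (-0.33, SE 0.08, adjusted p = 0.00626).

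Mitochondrial ribosomal proteins build the separate ribosome of the mitochondrion. Of 77 tested genes 7 were higher and 5 lower (21.4% and 21.6% of all genes), with a median of 0.05. The same number of cytosolic members had 0 and 41. Without knockout 5 and 6 the mitochondrial genes had 5 higher and 18 lower, beside 24.5% and 27.5% of all genes. Without control 6 as well they had 6 higher and 50 lower, beside 34.9% and 36.4% of all genes. In that fit 75 cytosolic members were lower. Mrps21 was higher (0.63, SE 0.09, adjusted p = 0.000171) and Mrps34 lower (-0.43, SE 0.08, adjusted p = 0.000972). By set, their median was -0.28 for knockout 1 to 4 and 0.32 for knockout 5 and 6 against control 1 to 5, and -0.52 for control 6 against control 1 to 5. Against control 1 to 5, 73 of 77 mitochondrial genes were lower in control 6 and 59 of 77 were higher in knockout 5 and 6, where 4 of 77 cytosolic members were higher; the difference between the lists was not tested.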

How the data were processed

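The values are expected counts (read estimates, some not whole) deposited as 1 table by gene symbol. The submitters' processing notes name RSEM 1.2.15, Bowtie2 2.1.0 and a human genome build, although the symbols are those of mouse genes, which leaves the build uncertain. Annotation and strand setting: not given in the sources used here. Libraries were poly(A)-selected and strand-specific, per the labels' protocols.

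Counts were rounded to whole numbers, filtered with filterByExpr (minimum count 10, minimum total 15; 12146 genes kept), scaled by TMM (trimmed mean of M-values) and tested with the quasi-likelihood test of edgeR 4.0.16 in R 4.3.3. Genotype was the only term, and p-values were adjusted by Benjamini-Hochberg over all genes, the threshold being 0.05. Fitted differences are log2 values of knockout minus control, and CPM uses the scaled library sizes. Figures were drawn with matplotlib 3.10.9. The script was tested on simulated counts.

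The alternatives were DESeq2 1.42.0, limma-voom (limma 3.58.1), other scalings and filters, a block for replicate number, libraries left out and summed sets; scaling by the member total was chosen after seeing the data. RefSeq start sequences and coding lengths (76 of 77 tested members matched) came from reference tables of GRCm38.p6 and its mouse annotation.

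Members and lists were chosen with earlier results of these data known. Genes named by rule were called members without overlap between groups (there were none), the 3 highest and 3 lowest per coding length, paralogs ending in l, 7 preset members (Rplp0, Rplp1, Rplp2, Rpl5, Rpl11, Rps6, Rps27a), up to 2 called genes per list, and Tnfrsf1a; 2 genes of these data are counted but not reported here by name. All other genes given with values were named after these were seen, among them Rpl12, Rpl28, Rpl36, Rpl34, Rps20, Rpl24, Rpl37a, Rps27, Rps18, Rpsa, Eef2, Eef1a1, Deptor, Nmd3 and Larp1.

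In 15 members, Rplp2, Rpl34, Rpl37a and Rpl36a among them, at least 1 library had a value with decimals, so reads shared with near-identical copies were split by estimate. Adding the 7 pseudogene entries named after members left 41 lower.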

Additional observations from a re-analysis of the deposited data

Results flagged for a closer look

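In 24 of 48 groups of 6 libraries examined for the summed values and named members, the highest or lowest library stood apart from the others by a gap above Dixon's critical share of the range of its group. Chance alone gives this in about 1 of 20 groups, and since all of these values come from the same 12 libraries, the groups are not independent. In 23 of the 24 the library was control 6. It was lowest in the summed share (3.20% of counts), in the summed large (20916 CPM) and small subunit genes (12522 CPM), and highest in the ratio of large to small subunit counts (1.67).

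Among single members, control 6 was low in the stalk genes Rplp0 (1366 CPM), Rplp1 (952 CPM), Rplp2 (425 CPM) and Rpl12 (511 CPM), and in Rpl5 (634 CPM) and Rpl11 (330.4 CPM), which bind 5S rRNA. It was also low in Rpl22 (184.6 CPM), Rpl24 (307 CPM), Rpl28 (481 CPM), Rpl34 (231 CPM), Rpl36 (216 CPM), Rpl36a (179.5 CPM), Rpl39 (220.3 CPM) and Rpl41 (483 CPM). For the small subunit the genes were Rps6 (629.7 CPM), Rps20 (498 CPM), Rps27a (312 CPM), Rps27l (81.8 CPM) and Rps4l (12.6 CPM). The 1 other library was knockout 3, which had 706 CPM of Rps20 against 500.0 to 565 CPM in the other knockouts.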

How the results depend on the processing

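The count of 41 lower members became 33 to 73 when 1 library was left out, with 73 without control 6 and at most 44 otherwise. Of all genes, 18.7% to 24.5% were lower in these fits. It was 75 without knockout 5 and 6 and control 6 (36.4% of all genes), and 0 on the 4 summed sets, where the small subunit median moved to -0.15. It was 41 when the scaling left out ribosomal protein genes and Rn45s, 39 by limma-voom, 52 by DESeq2 and 48 with library totals alone. The shares of all genes were 21.7%, 22.5%, 23% and 24.7%. That last scaling moved the split over all genes from 2622 lower and 2597 higher to 3003 and 2140. No member was called higher under any of these settings, and medians with 1 library left out were -0.57 to -0.41 for the large and -0.64 to -0.46 for the small subunit.

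Relative to the member total, the 4 higher calls became 3 to 18 with 1 library left out, and the 2 lower calls 0 to 14, with 18 and 14 without control 6. They were 29 and 23 without knockout 5 and 6 and control 6, and 0 and 0 on the summed sets. The lower calls were 0 with no low count filter, 1 by limma-voom and 4 without knockout 5 and 6.

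With a replicate block for the number in the titles, 15 of 77 members were called lower in place of 41. The share of all genes called lower was 17.3% in that fit, in place of 21.6%. Relative to the member total, 1 member was higher and 0 lower with the block. Libraries of the same number deviated from their group means with correlations of -0.38 to 0.21 and only number 5 above 0. These deviations also hold the split of knockout 5 and 6 and of control 6 from their groups. The correlations therefore cannot decide whether the numbers pair the samples.

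Members near 0 changed sign. Rpl37a was -0.0024 with library totals alone, -0.0384 without knockout 5 and 6 and control 6, and -0.0065 (without knockout 3) to 0.0953 with 1 library left out. In the same way Rpl11 ran from -0.132 to 0.0167 and Rpl24 from -0.126 to 0.0034, above 0 without knockout 1 and without knockout 2 for both and without knockout 4 for Rpl11. On the summed sets Rpl11 was 0.25, Rpl24 0.20 and Rps27a 0.0961. The causes were not tested. Rps4l had at least 77 counts in each library and the other tested members at least 1076; the part of depth was not tested.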
